A study of Mus musculus with 12 samples.

Results

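The IFIT family, interferon-induced proteins with tetratricopeptide repeats, was followed across 12 Affymetrix arrays of mouse liver RNA. Members were all probe sets whose only gene symbol in the platform's probe table is Ifit1, Ifit2 or Ifit3, where a probe set is the group of oligonucleotides that reads a transcript. The rule found 3 of the 8251 genes with a probe set of their own, with 1 probe set each (100981_at for Ifit1, 103639_at for Ifit2 and 93956_at for Ifit3). All 3 were among the 9641 of 12488 probe sets that were tested.

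The arrays fall into 6 groups of 2. Control mice carried no albumin-cre transgene and had 1 floxed and 1 wild-type Socs3 allele, labelled albumin-cre(-) Socs3(w/fl), and were given PBS or the cytokine interleukin-6 (IL-6). The Socs3-deleted group was albumin-cre(+) Socs3(-/fl), with 1 null allele in every cell and Cre under the albumin promoter, which is active in hepatocytes, and was given the same 2 injections. Interferon-gamma-/- mice, named Ifng-null here, received PBS or interferon-γ (IFN-γ). In every group the injection was intraperitoneal, the mice were killed after 4 h and total liver RNA was hybridised. The labels number the arrays of a group 1 and 2 without saying whether each was a mouse of its own. Every p-value here therefore rests on the scatter of the deposited arrays, which may be technical.

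IFIT proteins are antiviral effectors that are scarce in resting cells and made in large amounts after interferon. Type I interferon drives their genes through the transcription factor complex ISGF3, which binds the interferon-stimulated response element (ISRE); IFN-γ acts mainly at gamma-activated sites (GAS). IL-6 signals through gp130 and mainly STAT3, and Socs3 protein is the inhibitor that binds gp130 and ends that signal.

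The promoter windows of the members and of Ifit3b, a family gene whose window nearly repeats that of Ifit3, are shown because the members moved together and these windows can be searched for ISRE and GAS letters. The 300-base windows run from 250 bases before to 50 bases after a RefSeq transcription start on build GRCm38.p6, and all lie on the plus strand of chromosome 19. Capitals mark the ISRE core, searched on both strands as GAAA, any 2 bases and GAAA again, which reads TTTC, any 2 bases and TTTC on the other strand.
Ifit1, chr19:34640639-34640938: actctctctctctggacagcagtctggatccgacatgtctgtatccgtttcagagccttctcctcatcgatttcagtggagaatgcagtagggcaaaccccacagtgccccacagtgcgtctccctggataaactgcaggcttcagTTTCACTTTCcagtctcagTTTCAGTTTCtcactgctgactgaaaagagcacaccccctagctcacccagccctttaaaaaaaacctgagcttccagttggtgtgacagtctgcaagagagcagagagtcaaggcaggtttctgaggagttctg
Ifit3, chr19:34583279-34583578: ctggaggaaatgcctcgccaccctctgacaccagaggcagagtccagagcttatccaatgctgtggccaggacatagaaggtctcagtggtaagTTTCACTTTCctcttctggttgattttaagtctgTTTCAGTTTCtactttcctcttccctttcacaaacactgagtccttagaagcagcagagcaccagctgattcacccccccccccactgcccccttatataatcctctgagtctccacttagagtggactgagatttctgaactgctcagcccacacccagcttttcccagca
Ifit3b, chr19:34607707-34608006: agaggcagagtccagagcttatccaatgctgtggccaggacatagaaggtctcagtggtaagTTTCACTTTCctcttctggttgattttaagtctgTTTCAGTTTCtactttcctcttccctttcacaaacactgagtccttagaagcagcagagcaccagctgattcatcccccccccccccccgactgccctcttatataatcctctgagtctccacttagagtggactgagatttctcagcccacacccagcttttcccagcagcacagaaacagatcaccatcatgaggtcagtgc
Ifit2 first start, chr19:34550444-34550743: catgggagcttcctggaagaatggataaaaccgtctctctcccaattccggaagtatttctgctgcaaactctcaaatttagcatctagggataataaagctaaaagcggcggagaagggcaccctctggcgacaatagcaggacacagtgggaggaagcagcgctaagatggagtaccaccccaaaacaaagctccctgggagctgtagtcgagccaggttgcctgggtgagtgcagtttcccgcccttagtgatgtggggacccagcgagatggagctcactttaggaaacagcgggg
Ifit2 second start, chr19:34550838-34551137: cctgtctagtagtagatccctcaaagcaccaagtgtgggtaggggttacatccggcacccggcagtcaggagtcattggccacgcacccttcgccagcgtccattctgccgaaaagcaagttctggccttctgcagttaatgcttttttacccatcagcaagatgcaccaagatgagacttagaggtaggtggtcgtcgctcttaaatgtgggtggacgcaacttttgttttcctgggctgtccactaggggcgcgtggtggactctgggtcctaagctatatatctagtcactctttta

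The Ifit1 and Ifit3 windows each held 2 ISRE cores, and neither Ifit2 window held one. In Ifit1 the cores began 104 and 85 bases before the start, 19 bases apart. In Ifit3 they began 156 and 122 bases before the start, 34 bases apart. All 4 matches read in the TTTC form on the strand shown. A core occurred in 3.44% of the 32851 windows of all genes, and 2 or more in 0.225%. A longer form, the core followed by CT (or, in the TTTC form, preceded by AG), was matched at both cores of Ifit1 and at the farther core of Ifit3, against 0.271% of all windows. The GAS pattern TTCNNNGAA, the same on both strands, was matched once, 241 bases before the first Ifit2 start, against 8.30% of all windows. These matches are descriptions of letters and not measured binding sites.

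**Figure D1:**
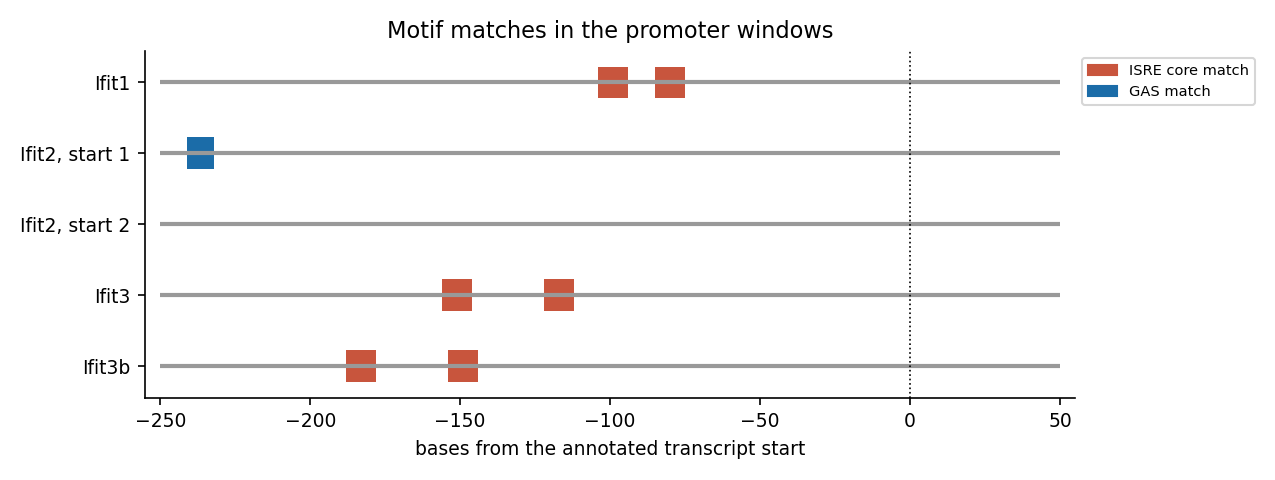
Motif matches in the promoter windows of the IFIT family, plotted by distance in bases from each transcription start. Ifit1, Ifit3 and Ifit3b each show 2 ISRE cores, and the Ifit2 windows show none.

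The Ifit3 and Ifit3b windows were identical at 259 of 274 aligned bases (94.5%), and both pairs of cores were 34 bases apart. No probe set is named for Ifit3b, Ifit1bl1 or Ifit1bl2, and the probe sequences were not used here, so whether the Ifit3 probe set also reads Ifit3b is uncertain. A second start of Ifit1bl2, on the opposite strand, overlaps the Ifit1 window and holds the same 2 cores.

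Array medians ran from 80.6 to 85.7 on the deposited intensity scale. The 9 hepatocyte markers on the array were above the low-value floor (33.0, the 25th percentile of all values) on all 12 arrays. The brighter Socs3 probe set read 74.4 to 106 in the 4 Socs3-deleted arrays and 117 to 167 in the 4 control arrays. The Ifng probe set was below the floor on all 12 arrays and so does not check that genotype. Summed exocrine pancreas markers reached 7409 on control PBS array 2 and 16315 on Socs3-deleted PBS array 2, against 1086 to 1400 on the others; values without these 2 arrays, which leave 1 PBS array in each of those groups, are given beside the results below, with the spread then taken from the other groups. Summed erythroid markers were higher on array 2 than on array 1 in every group. They were highest on the same 2 arrays, 7873 on control PBS array 2 and 6029 on Socs3-deleted PBS array 2, against 746 to 4717 on the others. Values without the arrays with pancreatic markers are thus also without the arrays highest in erythroid markers. In whole liver, fewer cells of a type and less RNA per cell cannot be told apart.

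Ifit1, which binds viral RNA caps that lack ribose methylation, spanned 65.8-fold from the lowest to the highest array and was above the floor on all 12. Control livers read 58.9 and 52.4 with PBS, and 426 and 116 with IL-6. In Socs3-deleted mice it read 530 and 67.8 after PBS and 3448 and 2984 after IL-6. In Ifng-null mice it read 88.2 and 108 after PBS and 1176 and 1656 after IFN-γ. The Socs3-deleted IL-6 arrays were the highest and the IFN-γ arrays next, with no overlap between these groups or with any other. Control IL-6 and Socs3-deleted PBS overlapped, each with 1 high and 1 low array.

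Ifit2, an RNA-binding member that also binds the translation factor eIF3, was below the floor on 6 of the 12 arrays. Control livers read 31.1 and 29.3 with PBS and 31.2 and 32.1 with IL-6, all below the floor and therefore without an order. In Socs3-deleted mice it read 51.3 and 28.3 after PBS, the second below the floor, and 403 and 328 after IL-6. In Ifng-null mice it read 30.1, below the floor, and 35.1 after PBS, and 109 and 130 after IFN-γ. The Socs3-deleted IL-6 and IFN-γ arrays were the only ones above 100, with the IL-6 pair higher.

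Ifit3, which forms complexes with other IFIT proteins, was above the floor on all 12 arrays and spanned 31.2-fold. Control livers read 61.9 and 38.9 with PBS and 142 and 75.8 with IL-6. In Socs3-deleted mice the values were 155 and 52.6 after PBS and 711 and 1213 after IL-6. In Ifng-null mice they were 87.6 and 94.4 after PBS and 513 and 756 after IFN-γ. Here the Socs3-deleted IL-6 and IFN-γ groups overlapped, unlike in the other members, and both lay above all 8 remaining arrays.

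**Figure D2:**
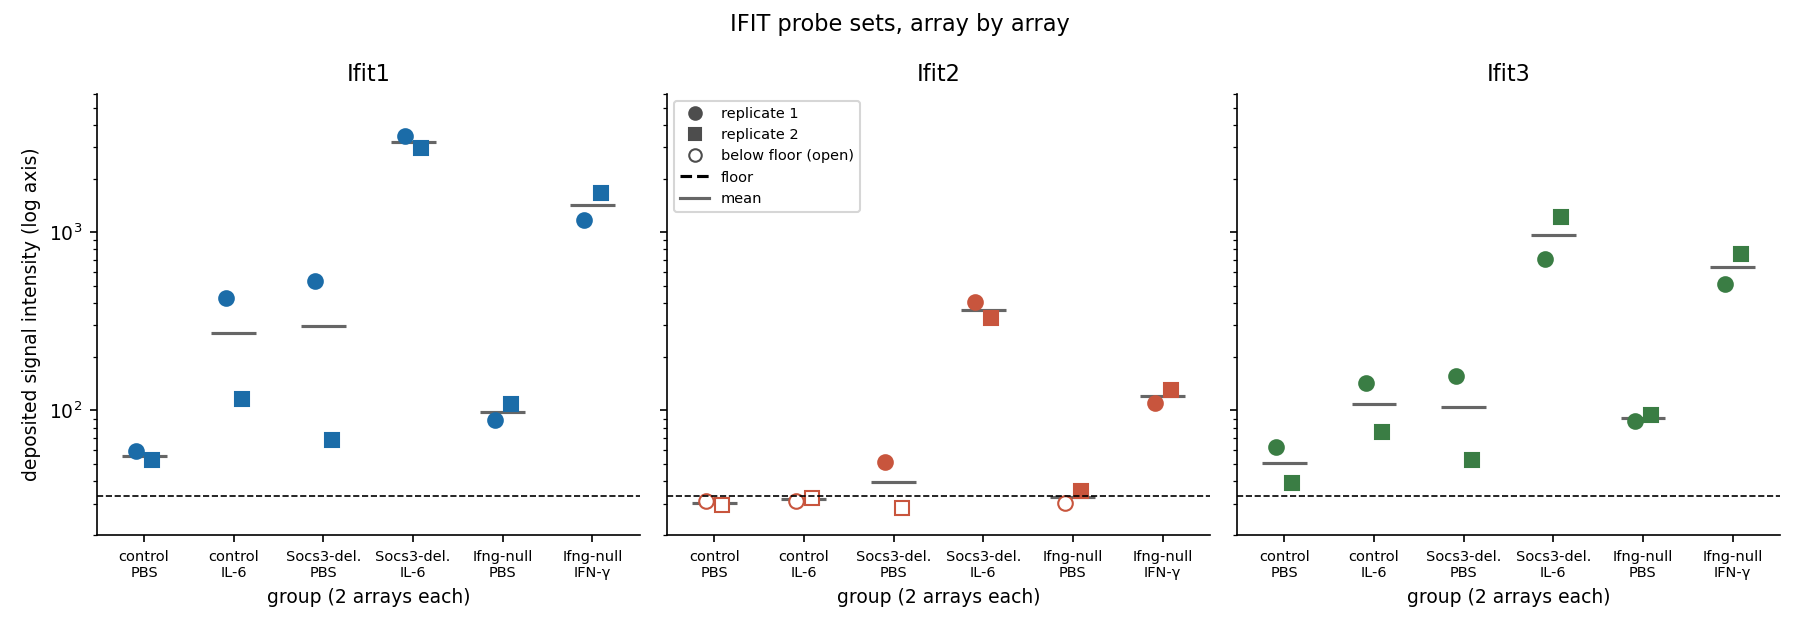
Deposited signal intensity (log axis) of the Ifit1, Ifit2 and Ifit3 probe sets on each of the 12 arrays, 2 per group. Circles are replicate 1, squares replicate 2, open symbols values below the floor, the dashed line the floor and bars the arithmetic means. The Socs3-deleted IL-6 and Ifng-null IFN-γ arrays are the 4 highest for every member.

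After IL-6 in Socs3-deleted mice, Ifit2 and Ifit3 rose, and both arrays were above both PBS arrays for all 3 members. Ifit2 went from 39.8 ± 16.3 to 366 ± 53.2 (SD, n = 2), which is 3.14 ± 0.19 (SE) on the log2 scale (limma adjusted p = 1.55e-04). PBS array 2 was set to the floor, so this change is a lower bound. Every SE here pools the spread of all groups. The control Ifit2 arrays were all set to the floor and added no spread, which lowers each Ifit2 SE and p-value. With only the arrays compared the Ifit2 call was lost (limma adjusted p = 0.115). Ifit3 went from 104 ± 72.7 to 962 ± 355, a log2 change of 3.36 ± 0.50 (limma adjusted p = 0.0143). Ifit1 had the largest change, 4.08 ± 0.83 or 16.9-fold between geometric means, from 299 ± 327 to 3216 ± 329, and did not pass (limma adjusted p = 0.0545). Of all tested probe sets 1.03% were called higher and 19.6% had both arrays above both PBS arrays. Ranked by log2 change among 9641 probe sets, the members were at 2 (Ifit1), 7 (Ifit3) and 10 (Ifit2).

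The Ifit1 and Ifit3 calls depended on single arrays. Without PBS array 1, Ifit1 passed (5.56, limma adjusted p = 0.00867), as it did without either control IL-6 array (4.08, limma adjusted p = 0.0462), and without PBS array 2, its change was 2.60. Ifit3 missed the threshold without PBS array 2 (2.58, limma adjusted p = 0.0751) and without IL-6 array 2 (2.97, limma adjusted p = 0.11). The Ifit2 call was kept without each single array. Without both arrays with pancreatic markers the changes were 2.60 for Ifit1, 2.82 for Ifit2 and 2.58 for Ifit3, and only Ifit2 of the 3 passed (limma adjusted p = 0.312, 0.00967 and 0.147). On the IL-6 arrays the summed level of the 11 macrophage markers was 5610 and 4355, against 3631 and 4286 after PBS, and the lipopolysaccharide co-receptor Cd14 was the 1 of the 11 that passed (log2 change 1.34, limma adjusted p = 0.00121). Without the arrays with pancreatic markers Cd14 did not pass. With all 12 arrays, the summed level of the 9 hepatocyte markers was 48525 and 45402 after IL-6 against 55864 and 52392 after PBS. The last of these sums is from the array with the highest pancreatic markers. In this fit 1 of 9 had a positive change and 1 was called lower (Hpd, -0.57, limma adjusted p = 0.046). The part of either marker list in the IFIT result was not tested.

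In control mice IL-6 gave no call for any member, and limma called 0% of all probe sets, with 248 at an unadjusted p under 0.05. The absence of calls does not mean that these livers did not respond. Of 19 tested genes of the acute phase, the liver's inflammatory response, 19 had a positive change, with 14 at an unadjusted p under 0.05 in limma. Their median was 0.84 against -0.01 over all probe sets. Ifit1 went from 55.7 ± 4.57 to 271 ± 219 (SD, n = 2), which is 2.00 ± 0.83 (SE) on the log2 scale (limma adjusted p = 1), and was the 1 member at an unadjusted p under 0.05. Ifit3 went from 50.4 ± 16.3 to 109 ± 47.1, a change of 1.08 ± 0.50 (limma adjusted p = 1). For Ifit2 all 4 arrays were below the floor, so no change was measurable. Without the arrays with pancreatic markers the changes were 1.92 for Ifit1 and 0.75 for Ifit3. Without control IL-6 array 1 they were 1.06 and 0.63, and without array 2 they were 2.94 and 1.54. Both IL-6 arrays were above both PBS arrays for Ifit1 and Ifit3, as for 13.0% of all probe sets.

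Whether IL-6 acted differently in the genotypes was tested as an interaction. Ifit2 was the 1 of 3 members that passed, with a difference of 3.14 ± 0.27 (SE) in log2 units (limma adjusted p = 0.00347). Of all probe sets 0.0415% passed, which is 4. For Ifit1 the difference was 2.08 with a 95% interval of -0.55 to 4.71 (limma adjusted p = 0.999), and for Ifit3 it was 2.28 with an interval of 0.68 to 3.88 (limma adjusted p = 0.965). All 4 control Ifit2 values were set to the floor, so the control response entered as 0 and without spread. The Ifit2 call was lost without either control PBS array (limma adjusted p = 0.0533 each) and without both arrays with pancreatic markers (2.82, limma adjusted p = 0.0916), where the difference was 0.68 for Ifit1 and 1.83 for Ifit3.

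Compared directly after IL-6, Socs3-deleted livers were higher than control livers for all 3 members on every array, as for 17.9% of probe sets, and 2 of 3 passed, against 0.861% of probe sets called higher. Ifit2 was at least 11.0-fold higher (limma adjusted p = 6.43e-05), a lower bound because both control arrays were set to the floor. Ifit3 was 8.94-fold higher (log2 3.16 ± 0.50, limma adjusted p = 0.0248). Ifit1 was 14.4-fold higher (log2 3.85 ± 0.83) and did not pass (limma adjusted p = 0.0778). The Ifit3 call was lost without any 1 of 6 arrays, among them control IL-6 array 2 (2.71, limma adjusted p = 0.234). Of the 11 macrophage markers 10 were higher in this comparison, with a median of 0.43, 1 called (Cd14) and 4 at an unadjusted p under 0.05, and their summed level was 5610 and 4355 against 3350 and 3421. Of the 9 hepatocyte markers 0 were higher, with a median of -0.12, none called and 1 at an unadjusted p under 0.05. Their summed level was 48525 and 45402 against 49691 and 51435. The part of either marker list in the result was not tested.

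After IFN-γ in Ifng-null mice, Ifit2 and Ifit3 rose, and both IFN-γ arrays were above both PBS arrays for all 3 members. Ifit2 went from 32.6 ± 3.55 to 120 ± 14.5 (SD, n = 2), which is 1.81 ± 0.19 (SE) on the log2 scale (limma adjusted p = 0.00278). PBS array 1 was set to the floor, so this change is a lower bound. With only the arrays compared the Ifit2 call was lost. Ifit3 went from 91.0 ± 4.86 to 635 ± 172, a change of 2.78 ± 0.50 (limma adjusted p = 0.0496). Ifit1 went from 98.2 ± 14.1 to 1416 ± 339, a 14.3-fold change of 3.84 ± 0.83 that did not pass (limma adjusted p = 0.12). Of all probe sets 0.612% were called higher and 9.80% did not overlap in this direction. The summed hepatocyte markers were 44910 and 46351 after IFN-γ against 51832 and 50838 after PBS, with 0 of 9 higher and none called, and their part was not tested. With the floor at the 50th percentile the Ifit2 change was 0.51 and did not pass (limma adjusted p = 0.147). The Ifit3 call sat at the threshold and was lost without any 1 of 10 arrays, all but the Socs3-deleted PBS pair, with limma adjusted p from 0.0557 to 0.435.

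The size of the IFN-γ response and that of IL-6 in Socs3-deleted mice use separate PBS arrays. The difference was 0.24 for Ifit1 (95% interval -2.39 to 2.88), 1.33 for Ifit2 (0.72 to 1.94) and 0.58 for Ifit3 (-1.02 to 2.19). None passed (limma adjusted p = 1, 0.436 and 1), 1 member, Ifit2, was at an unadjusted p under 0.05, and 0.0207% of all probe sets passed. The intervals for Ifit1 and Ifit3 reach beyond 2 log2 units, so equal responses were not shown. Without the arrays with pancreatic markers the Ifit1 and Ifit3 differences changed sign, to -1.24 and -0.20, and that of Ifit2 was 1.02. Against the IFN-γ response, the control IL-6 response was smaller by a log2 difference of -1.84 for Ifit1, -1.81 for Ifit2 and -1.69 for Ifit3, and none passed (limma adjusted p = 1, 0.0956 and 1), with 0.0519% of probe sets called and 2 members at an unadjusted p under 0.05. The Ifit2 value sets the IFN-γ change against a control response entered as 0. Without the arrays with pancreatic markers these were -1.92, -1.81 and -2.03.

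**Figure D3:**
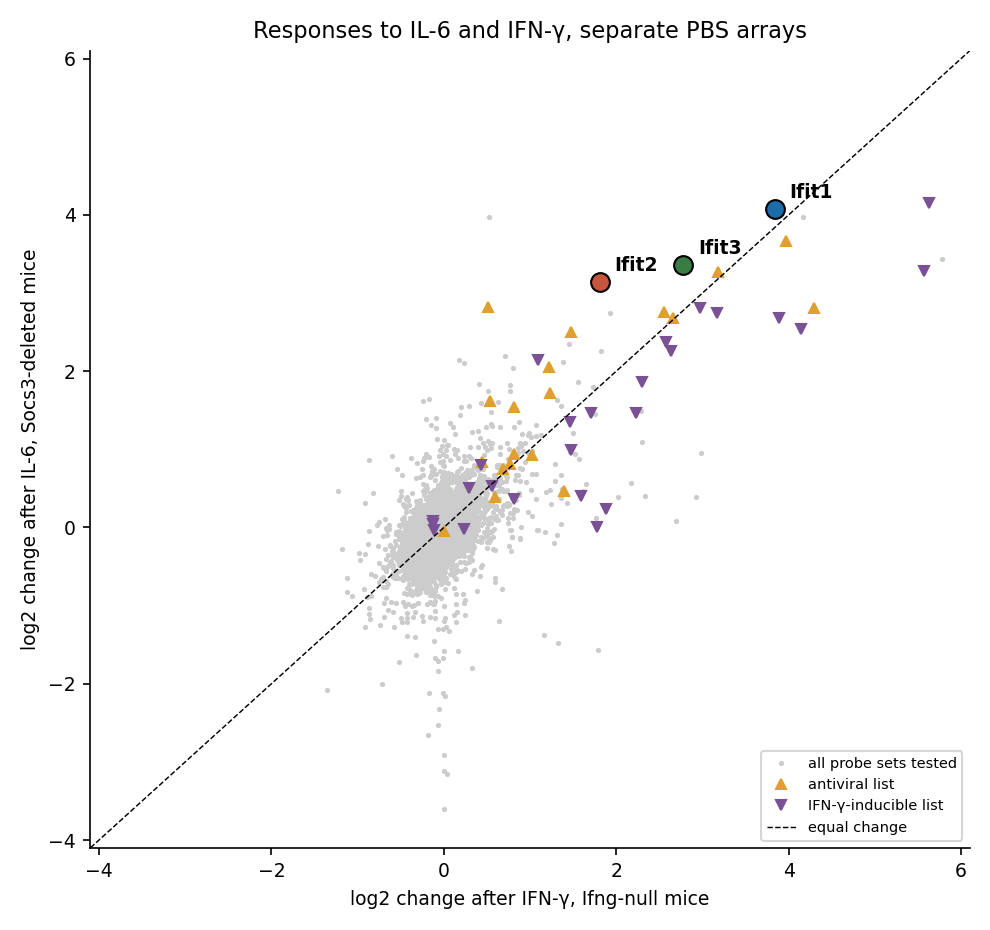
Log2 change after IL-6 in Socs3-deleted mice (vertical) against that after IFN-γ in Ifng-null mice (horizontal) for all tested probe sets, with the IFIT members marked and the dashed line at equality. The members lie far up both axes, and of the 3, Ifit2 is farthest above the line.

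After PBS alone, no member passed between genotypes. Socs3-deleted livers differed from control by log2 1.77 for Ifit1, 0.32 for Ifit2 and 0.88 for Ifit3 (limma adjusted p = 0.951 each), with both arrays above both for Ifit1 alone (15.9% of probe sets), 0 of 3 members and 402 of all probe sets at an unadjusted p under 0.05 and 0% called. Ifng-null livers differed from control by 0.81, 0.04 and 0.89 in the same order (limma adjusted p from 0.873 to 0.966), with both arrays above both for Ifit1 and Ifit3 (12.8% of probe sets), 0 members and 297 probe sets at an unadjusted p under 0.05 and 0% called. Without the arrays with pancreatic markers the Socs3-deleted differences were 3.17, 0.64 and 1.33 and the Ifng-null ones 0.73, 0.04 and 0.55. The Socs3-deleted side and the control side then hold 1 array each. Without Socs3-deleted PBS array 1 the differences from control were 0.29 for Ifit1 and 0.10 for Ifit3, and without array 2 they were 3.25 and 1.66. With all 12 arrays, 19 of 19 tested acute phase genes were higher in Socs3-deleted than in control livers after PBS. Of these 14 were at an unadjusted p under 0.05 in limma and none was called, with a median of 1.03 against -0.02 over all probe sets. Their part in the IFIT values was not tested.

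The Socs3-deleted PBS arrays differed from each other more in Ifit1 than nearly all other probe sets did. Array 1 was higher by 2.97 on the log2 scale for Ifit1, and 15 of 9641 probe sets had a larger difference in either direction; the Ifit3 difference was 1.56, with 45 larger. Among the 19 tested antiviral genes of the ISRE type, 10 were higher on array 1, with a median difference of 0.04. Rsad2, an antiviral radical enzyme, read 308 and 137, and Isg15, a ubiquitin-like modifier, 539 and 332. Array 2 is the one with the highest pancreatic markers, and its summed erythroid markers were 6029 against 2592 on array 1. The part of either marker list in this was not tested. Between the control IL-6 arrays Ifit1 differed by 1.88, with 13 larger, and Isg15 read 1635 and 299, with 16 of the 19 genes higher on array 1 and a median of 0.21. Summed erythroid markers were 1148 and 4717 on these arrays, and their part was not tested.

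**Figure D4:**
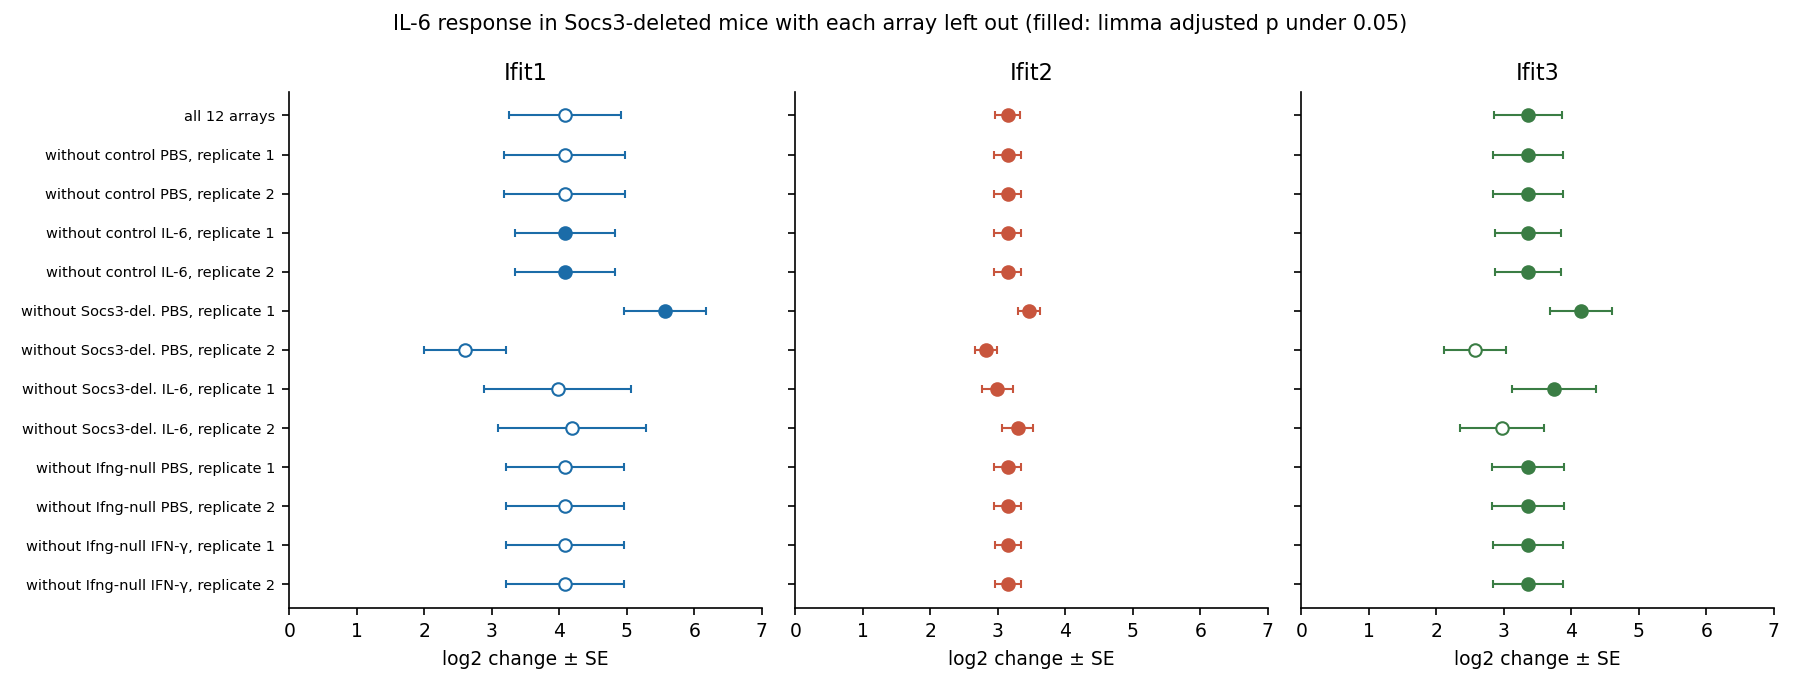
Log2 change ± SE from limma of each member after IL-6 in Socs3-deleted mice, with all 12 arrays and with each array left out in turn, where filled symbols passed an adjusted p of 0.05. Leaving out Socs3-deleted PBS array 1 or 2 moves Ifit1 to 5.56 or 2.60.

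Other antiviral genes of the ISRE type were called in the same comparisons. Of 35 genes listed 19 were tested, and with IL-6 in the Socs3-deleted livers 11 rose and none fell, against 1.03% of all probe sets called higher. The median log2 change of the 19 was 1.62 against a median of 0.00 over all probe sets. Rsad2 changed by 3.67 (limma adjusted p = 0.0012) and Mx1, a GTPase against viral nucleocapsids, by 2.82 (limma adjusted p = 9.23e-05). After IFN-γ 8 of the 19 rose, against 0.612% of all probe sets called higher, with a median of 1.03 against -0.03. Without the arrays with pancreatic markers 4 rose in each of these comparisons, and with each array left out 7 to 11 and 4 to 8 did. The IL-6 count fell to 7 without Socs3-deleted PBS array 1 or IL-6 array 2, and the IFN-γ count to 4 or 5 without any array other than the 2 control IL-6 arrays and IFN-γ array 1. In control mice limma called none after IL-6, 5 of them were at an unadjusted p under 0.05, and the median was 0.38 against -0.01. Mx1 was below the floor on all PBS and control arrays, so its change after IL-6 is a lower bound and its control response entered as 0. In the interaction 2 of them passed, against 0.0415% of all probe sets. These were Mx1 at 2.82 (limma adjusted p = 0.00213) and the nucleotide kinase Cmpk2 at 2.57 (limma adjusted p = 0.00585). None passed there without the arrays with pancreatic markers, and 1 without control PBS array 1 or 2 or control IL-6 array 2. An ISRE core was found in 11 of the 25 genes of this list with a promoter window and in 10 of 20 of the GAS list below, against 3.99% of all genes. The GAS pattern was found in 7 of the 25 and 6 of the 20, against 9.55% of all genes. The 2 lists thus had similar shares of either motif.

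The IFN-γ-inducible genes of the GAS type were called beside them. Of 25 tested, 12 rose after IL-6 in Socs3-deleted mice, with a median of 1.35, and 15 rose after IFN-γ, with a median of 1.71. Of all probe sets 1.03% and 0.612% were called higher in these comparisons, with medians of 0.00 and -0.03. The counts of the 25 were 2 and 10 without the arrays with pancreatic markers. The IL-6 count was 6 and 3 without Socs3-deleted PBS array 1 and 2, and 7 and 2 without IL-6 array 1 and 2. The IFN-γ count was 9 without Ifng-null PBS array 1. Gbp2, an interferon-induced GTPase, changed by 4.15 after IL-6 (limma adjusted p = 0.00917) and by 5.63 after IFN-γ (limma adjusted p = 0.00227). In control mice limma called none of the 25 after IL-6, while 21 had a positive change and 11 were at an unadjusted p under 0.05. Their median there was 0.40 against -0.01 over all probe sets. In the interaction 1 of the 25 passed, the guanylate-binding protein Gbp3 (2.22, limma adjusted p = 0.0292), against 0.0415% of all probe sets. Gbp3 did not pass without the arrays with pancreatic markers. It also did not pass without any 1 of 9 arrays, all but control IL-6 array 1, Socs3-deleted PBS array 1 and Socs3-deleted IL-6 array 1.

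Among genes that act above the IFIT promoters single calls were made, against the 1.03% of all probe sets called higher after IL-6 in Socs3-deleted mice and 0.612% after IFN-γ. Of 8 tested receptors, kinases and ISGF3 subunits, 1 rose after IL-6 in Socs3-deleted mice, the kinase Jak2 (log2 change 0.76, limma adjusted p = 0.00608). Of 7 tested interferon regulatory factors 1 rose there, Irf7 (1.72, limma adjusted p = 0.0144), also in the antiviral list, and 1 after IFN-γ, Irf8 (1.88, limma adjusted p = 1.42e-04), which is also in the GAS list. Neither Jak2 nor Irf7 passed without the arrays with pancreatic markers. Jak2 also did not pass without Socs3-deleted IL-6 array 2, nor Irf7 without any single Socs3-deleted array. Of 7 tested interferon genes none passed in limma in any of the 9 comparisons, with 0 at an unadjusted p under 0.05, and Ifnb1, which encodes interferon-β, read 35.0 to 39.1 on all 12 arrays, just above the floor. None of the 10 tested eIF3 subunits passed in limma in any comparison, with at most 1 at an unadjusted p under 0.05. The medians of the interferon genes lay between -0.16 and 0.11, against -0.03 to 0.03 over all probe sets.

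On chromosome 19 the family lies in the order Ifit2, Ifit3, Ifit1bl1, Ifit3b, Ifit1bl2, Ifit1, after Acta2, Fas, Ch25h and Lipa. No tested gene of that flank passed in limma in any comparison, with at most 2 of 3 at an unadjusted p under 0.05. The death receptor Fas had 0.64 after IL-6 in Socs3-deleted mice (limma adjusted p = 0.0898) and 0.73 after IFN-γ (limma adjusted p = 0.0851), both lower bounds because its PBS arrays were below the floor. Ch25h, cholesterol 25-hydroxylase, was below the floor on all 12 arrays.

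Across the 12 arrays the members' log2 values correlated at r = 0.912 (Ifit1 with Ifit2), 0.971 (Ifit1 with Ifit3) and 0.922 (Ifit2 with Ifit3). These describe arrays that share groups and normalization, and they include the floored Ifit2 values and the 4 high arrays of the cytokine groups. By Pearson r the 5 tested genes most like Ifit1 were Crybg1 (0.976), Ifit3, Isg15 (0.967), Myd88 (0.964) and Gm9706 (0.960), the last from a probe set whose suffix marks a sequence family. For Ifit2 they were Trim30a (0.967), Znfx1 (0.963), Map2k1 (0.958), Csf2rb2 (0.957) and Myd88 (0.944). For Ifit3 they were Myd88 (0.977), Ifit1, Gbp3 (0.969), Rsad2 (0.968) and Crybg1 (0.966). Myd88, the adaptor of Toll-like receptors, was in all 3 lists, with 1.21 after IL-6 in Socs3-deleted mice (limma adjusted p = 0.00884). By Spearman rho the 5 shared 1, 0 and 2 genes with these, and over the 6 group means 3, 0 and 1.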

How the data were processed

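Liver RNA of 12 samples in 6 groups of 2, taken from the sample titles, was measured on 1-colour arrays. The deposited table holds the authors' linear signal intensities for 12488 probe sets; their method and scaling were not given in the sources used here, and no detection calls were used. Values below 33.0, the 25th percentile of all values, were set to it, log2 was taken, and a probe set was tested when above the floor on at least 2 arrays. limma 3.58.1 (R 4.3.3) fitted 6 group means with eBayes over 9641 probe sets; 9 contrasts were adjusted by Benjamini-Hochberg over all of them, with a threshold of 0.05. The number of arrays limits the precision: an exact permutation test of 2 against 2 cannot go below p = 0.333, so limma, which shares the spread across probe sets, was used. The procedure was tested on simulated data.

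Of the probe sets, 10833 have 1 gene symbol, 396 several and 1193 none; 66 are controls. Where a gene of a list had several probe sets, the one with the highest mean stood for it. Motifs were searched in RefSeq windows with Python 3.11.15. Lists were named by up to 4 called genes, or 2 where none was called, and 5 genes most like each member by Pearson r; Ifnb1 and Ch25h were named outside this rule after their values were seen. Members and lists were chosen with earlier results of these data known, so patterns are not independent support. The alternatives tried were other floors and filters, offsets, median centring, quantile normalization, array weights, a replicate block, subsets of arrays and leaving out each array. Replicate numbers were taken as numbers only: the labels do not tie them to a litter or day, and deviations of same-numbered arrays correlated from -0.25 to 0.67 over 15 pairs of groups.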

Additional observations from a re-analysis of the deposited data

Results flagged for a closer look

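The IL-6 response of Ifit2 differed between Socs3-deleted and control mice by 3.14 on the log2 scale (limma adjusted p = 0.00347), the 1 of 3 members whose difference between genotypes passed. The Socs3-deleted arrays read 51.3 and 28.3 after PBS and 403 and 328 after IL-6, while the 4 control arrays read 29.3 to 32.1, all below the floor. The control response therefore entered as 0, and the difference equals the Socs3-deleted response alone. The call was kept in 20 of 25 alternatives and lost, among others, without a filter and with only the arrays compared.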

How the results depend on the processing

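Of 675 member values over 25 alternatives, 613 kept direction and side of the threshold, 39 lost a call, 18 gained one and 5 reversed. Most of these values had no call to lose. The Ifit3 call after IFN-γ was kept in 9 of the 25 and that between genotypes after IL-6 in 17. The other member calls were kept in 20 to 24. The reversals were in the IL-6 response of Socs3-deleted mice against the IFN-γ response: Ifit1 -1.24 and Ifit3 -0.20 without Socs3-deleted PBS replicate 2, the same values without both arrays with pancreatic markers, and Ifit1 -0.0027 without Ifng-null IFN-γ replicate 1. With each array left out these differences ran up to 1.73 for Ifit1 and 1.37 for Ifit3 (both without Socs3-deleted PBS replicate 1). The cause of the changes was not tested.

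The number of the 3 members called after IL-6 in Socs3-deleted mice was 2, against 1 without a filter, 0 when the fit held just the arrays compared, 1 when the arrays with pancreatic markers were dropped and 1 to 3 with each array left out; it was 3 with a 10th percentile floor, no floor, the pseudocount, the filter on 6 arrays, the intensity trend or the replicate block. The difference between the IL-6 responses had 1, against 0 under each of these 3, and 0 to 1 with each array left out. After IFN-γ it was 2, against 1 with median centring, a 50th percentile floor, array weights, the replicate block or the pancreatic arrays dropped, 0 without a filter or with the compared arrays alone, and 1 to 3 with each array left out. Between genotypes after IL-6 it was 2, against 1 without a filter, 0 with the compared arrays alone, 3 with array weights and 1 to 3 with each array left out. Against the IFN-γ response, IL-6 in Socs3-deleted mice had 0, and 1 with a 50th percentile floor; IL-6 in control mice had 0, and 1 with only the arrays compared, and 0 to 1 with each array left out. The other 3 comparisons had 0 under all 25.

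With only the arrays compared, the Ifit2 calls after IL-6 (limma adjusted p = 0.115) and IFN-γ (0.0906) were lost; the former was kept under the other 24. The replicate block moved the Ifit3 call after IFN-γ to limma adjusted p = 0.0714 and brought Ifit1 after IL-6 in Socs3-deleted mice to 0.048. A block with crossed numbers for the Ifng-null and control PBS arrays, chosen after seeing the data because their deviations correlated at -0.11, called 0 members and 0 probe sets. Calls over all probe sets ran from 1 to 160 after IL-6 in Socs3-deleted mice (113 in the reported fit) and from 8 to 72 after IFN-γ (63).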
